A study of Mus musculus with 13 samples.

Results

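The genes described here are 9 members of the transforming growth factor beta (TGF-beta) pathway out of 14860 named genes: the ligand genes Tgfb1, Tgfb2, Tgfb3 and Inhba, the receptor genes Tgfbr1, Tgfbr2 and Tgfbr3, the signal transducer gene Smad3, and Ltbp2. They were chosen by name, with earlier results of these data known, so the choice was not independent of the values. Each was the single array row of its gene. Their RNA was followed in mouse embryonic fibroblasts that were reprogrammed to induced pluripotent stem (iPS) cells by factors under a promoter that doxycycline (Dox) turns on. Each of 13 conditions had 1 array. The values are deposited log2 RMA levels, on which a difference of 1 is a 2-fold difference, and levels of different genes cannot be set against each other.

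The groups were as follows. There were 2 arrays of iPS cells that the labels call independent of Dox: secondary iPS cells of line 6C at day 30, and primary iPS cells of 6C. Their agent label nevertheless reads Dox, and which holds was not settled. Secondary fibroblasts of 6C had arrays at days 2, 5, 8, 11, 16 and 21 of Dox at 1.5 µg per ml. Secondary fibroblasts of line 1B had 1 array at day 5 of Dox at the same dose and 1 after 5 further days without it. The 3 untreated arrays were of 6C at day 0, 1B at day 0 and parental fibroblasts. All cells were grown in mouse embryonic stem cell medium. The design text speaks of 6C clones, and the factors carried by each line are not stated here. The labels name no separate cultures of a condition, so every spread given below is one between lines, between kinds of iPS cells or around a fitted curve.

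As background, TGF-beta ligands are secreted in a latent form bound to matrix proteins. Once freed, a ligand brings together type II and type I receptors, which phosphorylate Smad2 and Smad3. These join Smad4 and enter the nucleus. In fibroblasts the pathway is known for driving matrix and contractile genes and for holding cells in a mesenchymal state. Inhba encodes the subunit of activin A, a relative of the TGF-betas that also signals through Smad2 and Smad3 and whose gene is itself induced by TGF-beta. Tgfbr3 encodes betaglycan, a co-receptor that presents TGF-beta2. Ltbp2 belongs to the family of latent TGF-beta binding proteins, although its product is a component of elastic and microfibrillar matrix that does not bind latent TGF-beta.

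The promoters of 5 members are shown: Inhba had the largest difference at day 5 of Dox in both lines, Tgfb1 and Tgfb2 are sister ligands, Tgfbr1 varied least, and Tgfbr2 differed in direction between the lines. Each run holds the 250 bases before the annotated start, read 5′ to 3′, from RefSeq on GRCm38.p6, where 7 of the 9 genes matched. The array values were made on mm9 and carry no coordinates here. Capitals mark 3 kinds of motif searched on both strands: the TATA box TATAAA, the Smad box CAGAC and the GC box GGGCGG. No marked motif overlaps another. The positions are chr13:16011601-16011850 on the + strand for Inhba, chr7:25686752-25687001 on the + strand for Tgfb1, chr1:186705990-186706239 on the - strand for Tgfb2 and chr4:47352972-47353221 on the + strand for Tgfbr1, the first of 2 starts listed for that gene. That for Tgfbr2 is chr9:116175364-116175613 on the - strand.
Inhba: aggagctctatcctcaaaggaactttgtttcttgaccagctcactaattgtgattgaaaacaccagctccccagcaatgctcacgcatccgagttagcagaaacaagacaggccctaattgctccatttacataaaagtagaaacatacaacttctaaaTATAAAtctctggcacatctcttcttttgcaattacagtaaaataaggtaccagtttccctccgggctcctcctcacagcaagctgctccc
Tgfb1: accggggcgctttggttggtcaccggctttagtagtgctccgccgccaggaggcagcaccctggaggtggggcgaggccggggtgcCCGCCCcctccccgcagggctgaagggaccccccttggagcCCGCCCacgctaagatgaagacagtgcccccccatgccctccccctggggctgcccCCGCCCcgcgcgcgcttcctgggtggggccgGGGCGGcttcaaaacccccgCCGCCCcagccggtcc
Tgfb2: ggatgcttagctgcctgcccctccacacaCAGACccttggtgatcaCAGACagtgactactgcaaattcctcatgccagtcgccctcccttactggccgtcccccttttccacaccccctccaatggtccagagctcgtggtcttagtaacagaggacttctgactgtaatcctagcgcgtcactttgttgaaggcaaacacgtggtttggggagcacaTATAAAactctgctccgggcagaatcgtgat
Tgfbr1: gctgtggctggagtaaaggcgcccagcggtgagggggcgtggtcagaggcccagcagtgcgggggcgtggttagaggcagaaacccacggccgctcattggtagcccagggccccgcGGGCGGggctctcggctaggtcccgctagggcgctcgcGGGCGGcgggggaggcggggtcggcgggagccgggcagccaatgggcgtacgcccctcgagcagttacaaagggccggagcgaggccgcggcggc
Tgfbr2: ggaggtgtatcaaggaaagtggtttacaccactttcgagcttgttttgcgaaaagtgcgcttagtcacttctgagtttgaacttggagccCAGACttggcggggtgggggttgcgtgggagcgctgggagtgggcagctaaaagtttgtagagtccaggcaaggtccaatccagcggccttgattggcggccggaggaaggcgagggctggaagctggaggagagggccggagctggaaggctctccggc
In these runs Inhba had 1 TATA box, which began 91 bases before the start, and no Smad or GC box. Tgfb2 had 1 TATA box, 31 bases before the start, and 2 Smad boxes. Tgfb1 and Tgfbr1 had neither of those motifs but 5 and 2 GC boxes. Tgfbr2 had 1 Smad box and neither of the others. The share of G or C was 75.2% in Tgfb1, 74.8% in Tgfbr1, 58.4% in Tgfbr2, 53.6% in Tgfb2 and 43.2% in Inhba, and the median of all windows was 52.4%. Of 32851 such windows in the RefSeq table, 12.37% held a TATA box, 42.19% a Smad box and 32.74% a GC box. The AP-1 site TGANTCA was found in none of the 5 runs and in 6.749% of all windows. A match of these letters describes the sequence and is not a site shown to be bound.

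Levels at the end point were set against those of the starting cells first. RNA of 6 of the 9 genes fell in iPS cells and none rose. The ligands Tgfb2 and Tgfb3 had the largest estimates, over 10-fold, but that order depended on single arrays. Without primary iPS cells the log2 difference was -2.30 for Tgfb3, against -2.74 for Tgfb2, -2.60 for Ltbp2 and -2.52 for Tgfbr3. By limma over all 23332 array rows, 3.32% of rows were called lower and 5.44% higher, a call needing a 2-fold difference and an adjusted p (Benjamini-Hochberg) below 0.05. The members' median difference was -3.05 on the log2 scale, and that of all rows was -0.025.

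Among the ligands, Tgfb2 stood at 7.55 in secondary and 6.12 in primary iPS cells, against 10.75, 10.33 and 9.78 in parental, 6C and 1B untreated fibroblasts. The iPS arrays lay below all 3 untreated arrays, and Tgfb2 was 10.9-fold lower in iPS cells (log2 difference -3.45, SE 0.51, adjusted p = 0.022 by limma). Tgfb3 stood at 8.97 and 6.29 in secondary and primary iPS cells, against 11.27, 11.10 and 11.42 in parental, 6C and 1B fibroblasts. It was 12.4-fold lower (-3.63, SE 0.75, adjusted p = 0.042 by limma), and its iPS arrays lay further apart than those of any other member. Inhba stood at 10.53 and 9.13 in secondary and primary iPS cells, against 11.97, 12.30 and 12.55 in parental, 6C and 1B fibroblasts, 5.45-fold lower (-2.45, SE 0.46, adjusted p = 0.035 by limma).

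Tgfb1 stood apart from the other ligands. It had levels of 8.50 and 9.22 in secondary and primary iPS cells, against 10.50, 10.32 and 9.71 in parental, 6C and 1B fibroblasts. The groups did not overlap, but the difference of -1.31 (SE 0.37, 95% interval -2.22 to -0.40) did not pass the test (adjusted p = 0.082 by limma). It was the only member with a lower level in secondary than in primary iPS cells.

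The receptors differed among themselves. Tgfbr2, the type II receptor that binds the ligand, stood at 8.13 and 6.00 in secondary and primary iPS cells, against 10.91, 9.63 and 10.23 in parental, 6C and 1B fibroblasts, and fell by 3.19 on the log2 scale (SE 0.70, adjusted p = 0.048 by limma). Tgfbr3 stood at 7.37 and 6.32 in those iPS cells, against 10.92, 8.81 and 9.96 in those fibroblasts, and fell by 3.05 (SE 0.67, adjusted p = 0.048 by limma). Both lie close to the threshold, and the fibroblast arrays of Tgfbr3 alone spanned more than 2 on this scale. Tgfbr1, the type I receptor kinase, stood at 8.65 and 8.39 in secondary and primary iPS cells, against 9.71, 8.86 and 9.03 in parental, 6C and 1B fibroblasts. Its difference of -0.68 (95% interval -1.51 to 0.15, adjusted p = 0.26 by limma) did not pass the test, and the interval does not exclude a 2-fold lower level. Over all 13 arrays Tgfbr1 spanned 1.39, the least of the 9, and Tgfb3 5.16, the most.

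Smad3 stood at 8.30 and 7.08 in secondary and primary iPS cells, against 10.50, 9.50 and 9.48 in parental, 6C and 1B fibroblasts. Its difference of -2.14 (SE 0.50) narrowly missed the threshold (adjusted p = 0.055 by limma). With quantile normalization it passed (adjusted p = 0.037). Ltbp2 stood at 7.92 and 6.74 in those iPS cells, against 10.79, 10.57 and 10.19 in those fibroblasts, and had the smallest adjusted p of the members (log2 difference -3.19, SE 0.42, adjusted p = 0.017 by limma).

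**Figure D1:**
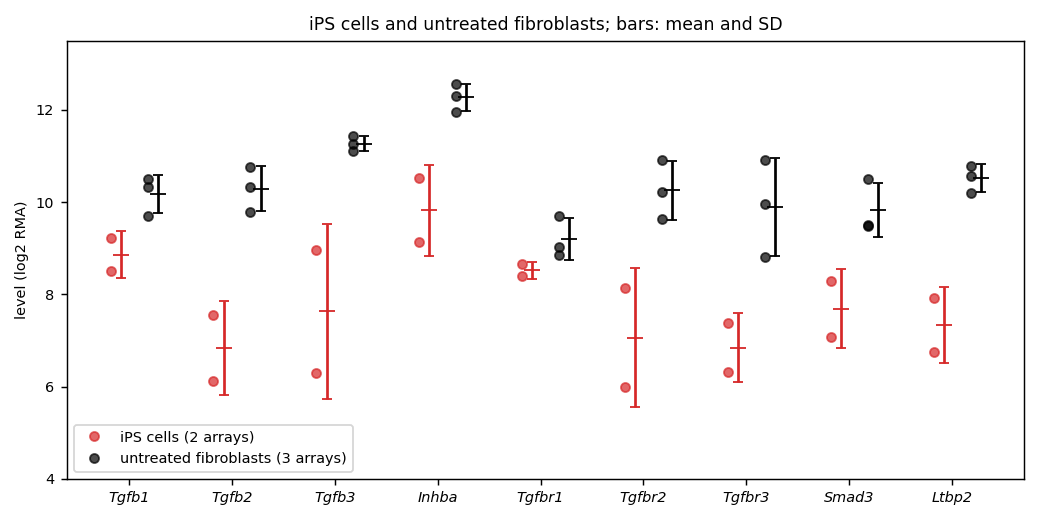
Level (log2 RMA) of the 9 genes in 2 arrays of iPS cells (red, left) and 3 arrays of untreated fibroblasts (black, right). Each point is 1 array and the bars are the mean and SD. For each gene the iPS arrays lie below all 3 untreated arrays, by little for Tgfbr1 and by most for Tgfb2, Tgfb3, Tgfbr2 and Ltbp2.

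For all 9 members the iPS arrays lay below the untreated arrays, which held for 22.1% of all rows, and they lay above them for 22.2%. The calls depended on single arrays. After leaving out the parental, the 6C day 0 or the 1B day 0 array, no member was called by limma. In each case 8 had an unadjusted p under 0.05, as had 5457, 6504 and 5090 of all 23332 rows. Leaving out an iPS array leaves a single array in that group. The differences then ran from -0.55 (Tgfbr1) to -2.74 (Tgfb2) without primary iPS cells. Without secondary iPS cells they ran from -0.81 (Tgfbr1) to -4.97 (Tgfb3). Within array set 2, a set of arrays sharing a name prefix that held both primary iPS cells and parental fibroblasts, all 9 members were over 2-fold lower in the iPS cells, from -1.28 for Tgfb1 and -1.32 for Tgfbr1 to -4.98 for Tgfb3. In that pair 19% of all rows were over 2-fold lower and 14.1% higher, and it has no test.

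Fibroblast markers moved with these genes. The mean level of 7 measured markers of 8 listed (Thy1, Pdgfra, Pdgfrb, Col1a1, Col1a2, Col3a1 and Fap) was 9.66 and 7.01 in secondary and primary iPS cells, against 10.67 to 11.56 in untreated fibroblasts. The mean of 8 pluripotency markers was 11.23 and 11.17 in those iPS cells, against 4.43 to 5.00. Epithelial markers (6 of 7 measured) averaged 10.03 and 10.48 in secondary and primary iPS cells, against 5.63 to 6.08, and smooth muscle markers 9.56 and 8.11, against 9.77 to 10.97. In such bulk samples fewer fibroblasts and less RNA per cell cannot be told apart. The iPS arrays also differed from each other: 7 of the 9 members were over 2-fold higher in secondary than in primary iPS cells and none was lower, where 7.94% of all rows were higher and 7.35% lower. The differences ran from 1.05 for Tgfbr3 to 2.68 for Tgfb3. With quantile normalization 6 members were over 2-fold higher, and with arrays centred on their medians 5 were. The secondary iPS array is of array set 4 and the primary of set 2, so kind of iPS cell and set cannot be told apart. The part of these markers in either difference was not tested.

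The 6C series asked when these levels changed. Tgfb2, Tgfb3 and Ltbp2 fell over the series, while Tgfbr2 and Tgfbr3 peaked at day 5 before falling. A polynomial of day of degree 3 was fitted to the 8 arrays, with day 30 the secondary iPS cells, and 5 members passed limma's F test with a fitted change of at least 2-fold and ended lower: Tgfb2, Tgfb3, Tgfbr2, Tgfbr3 and Ltbp2. Of all rows, 2.49% were called as ending lower and 3.87% as ending higher. Over the same arrays the fibroblast markers averaged 11.12, 11.04, 11.36, 10.71, 10.36, 9.67 and 9.29 at days 0, 2, 5, 8, 11, 16 and 21, and 9.66 in secondary iPS cells. Epithelial markers averaged 5.63, 8.41, 11.40 and 10.57 on days 0, 5, 11 and 21. The part of either list in the members' course was not tested.

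Tgfb3 was 11.10, 10.89, 10.53, 9.55, 8.87, 8.58 and 7.83 at days 0, 2, 5, 8, 11, 16 and 21, and 8.97 at day 30, in secondary iPS cells. Each sampled day up to day 21 was thus lower than the one before (adjusted p = 0.012 by limma's F test), and its fitted curve lay over 2-fold below day 0 first at day 8. Ltbp2 was 10.57, 10.53, 9.70, 8.60, 8.73, 7.98 and 7.45 over the same days and 7.92 at day 30 (F test by limma, adjusted p = 0.017). Its fitted curve lay over 2-fold below day 0 first at day 5, while the day 5 array itself differed by -0.88, under 2-fold. Tgfb2 was 10.33, 10.01, 9.53, 8.94, 7.79, 7.85 and 8.56, and 7.55 at day 30 (F test by limma, adjusted p = 0.048). Its levels at days 11 and 16 hardly differed and were its lowest under Dox, whereas the other ligands were lowest at day 21.

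Tgfb1 was 10.32, 10.35, 9.34, 8.52, 9.29, 8.39 and 7.59 at days 0 to 21, and 8.50 in secondary iPS cells. Inhba was 12.30 and 12.04 at days 0 and 2, then 9.66, 8.67, 9.14, 9.84 and 8.16 from day 5 to day 21, and 10.53 in secondary iPS cells. Neither curve passed the F test (adjusted p = 0.073 for Tgfb1 and 0.10 for Inhba by limma), and a smooth curve of this degree cannot follow a step between adjacent days such as that of Inhba between days 2 and 5. Tgfb1, Tgfb3, Inhba, Tgfbr2 and Ltbp2, 5 of the 9, had their lowest 6C array at day 21 and stood higher in secondary iPS cells. This was counted after the values were seen, and 13.8% of all rows had their lowest 6C array at day 21.

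Tgfbr3 was 8.81 at day 0, 9.52 at day 2 and 11.20 at day 5, then 10.66, 9.99, 8.81 and 8.25 at days 8, 11, 16 and 21, and 7.37 at day 30 (F test by limma, adjusted p = 0.030). Tgfbr2 was 9.63, 10.11, 10.74, 10.28, 9.26, 8.55 and 7.60, and 8.13 at day 30 (F test by limma, adjusted p = 0.018). With a polynomial of degree 2 neither receptor was called, while Tgfb1 and Smad3 were. The highest 6C level of both receptors was at day 5, as was that of Smad3 by little (9.58, against 9.53 at day 2). Those of the ligands and Ltbp2 lay at day 0 or 2. The day 5 peak of the receptors compares with an untreated 6C array that was itself low. Parental fibroblasts had 10.92 for Tgfbr3 and 10.91 for Tgfbr2, about the day 5 levels. Macrophage markers stood higher on the same days, with a mean over 8 markers of 5.82 at day 0, 7.17, 7.86 and 6.91 at days 5, 8 and 11 and 5.84 at day 16, and 6.29 in parental fibroblasts. Their part in the receptor levels was not tested.

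Tgfbr1 stayed between 8.64 and 9.03 throughout the 6C series (adjusted p = 0.87 by limma's F test). Smad3 was 9.50, 9.53, 9.58, 9.14, 9.23, 9.03 and 8.79, and 8.30 in secondary iPS cells, and its curve did not pass either (adjusted p = 0.085). For both, neighbouring days differed by less than the SD between untreated arrays, which was 0.45 for Tgfbr1 and 0.59 for Smad3.

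**Figure D2:**
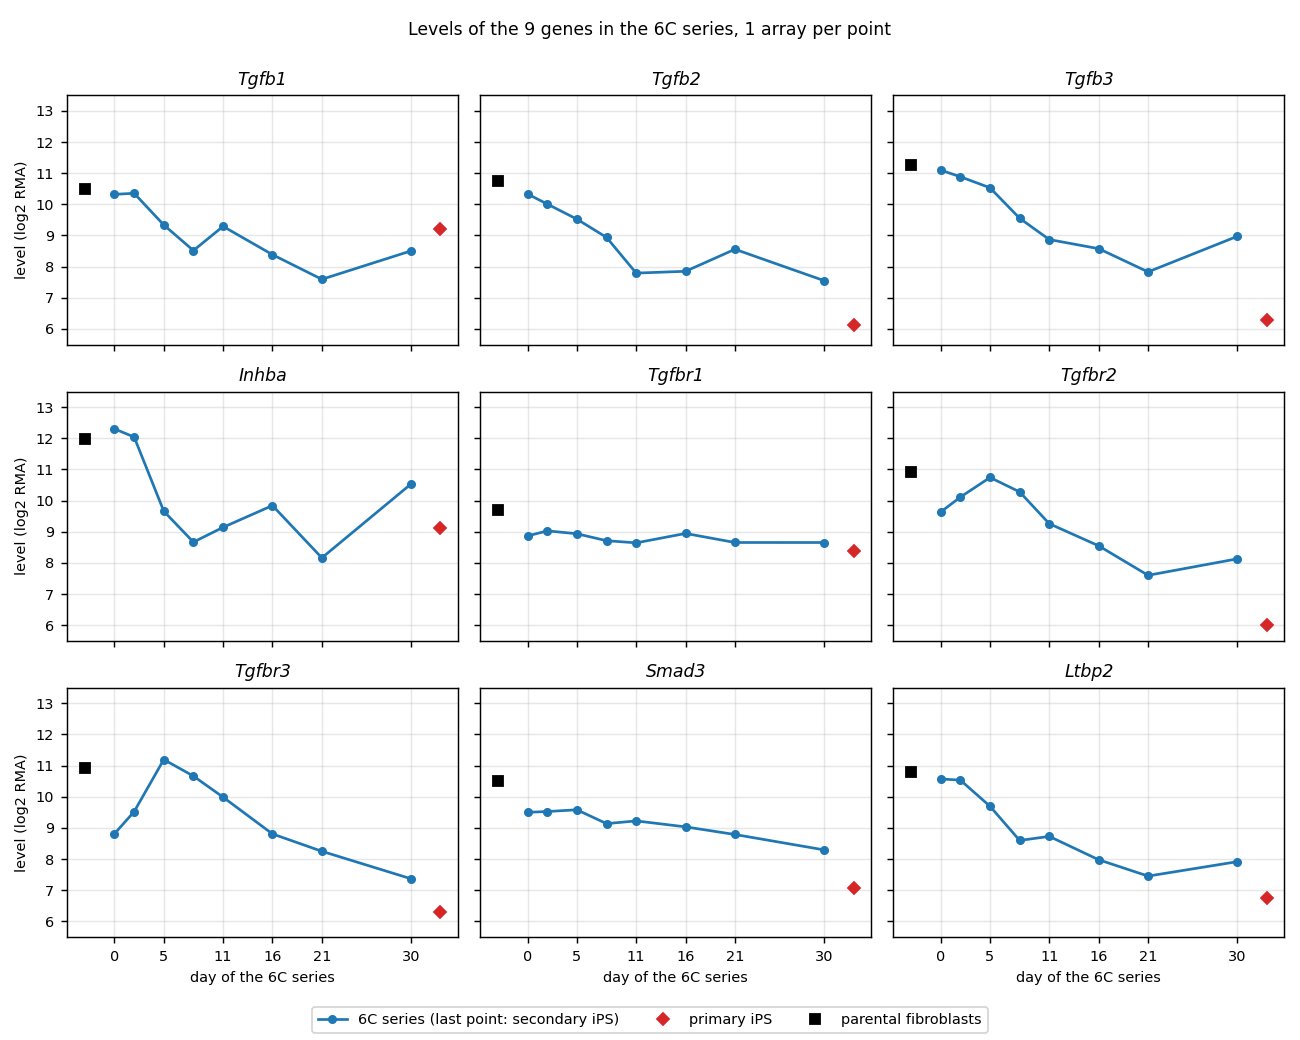
Level (log2 RMA) of each gene against day in the 6C series (blue, the point at day 30 is secondary iPS cells), with parental fibroblasts (black square) and primary iPS cells (red diamond) drawn at the sides, which are not days. Tgfb3 and Ltbp2 reach their lowest level at day 21, Inhba stands lower from day 5, Tgfbr2 and Tgfbr3 peak at day 5, and Tgfbr1 stays between 8.64 and 9.03.

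Counted on single arrays against day 0 of 6C, no member was over 2-fold lower at day 2, where 2.7% of all rows were, and 1 was at day 5 (5.86%). The number was 5 on day 8 (8.37%), 5 on day 11 (7.32%), 6 on day 16 (6.86%), 6 on day 21 (9.08%) and 8 in secondary iPS cells (8.92%). Higher by over 2-fold were none on day 2 (11.9% of all rows), 2 on day 5 (14.6%, Tgfbr2 and Tgfbr3), 1 on day 8 (12.5%) and 1 on day 11 (16.4%), in both cases Tgfbr3. None was on day 16 (17.5%) or 21 (13%) or in secondary iPS cells (16.1%). Days 0 and 21 belong to the same array set. The median of the day 0 array was the lowest of the 13, and after quantile normalization or with arrays centred on their medians 4 members were over 2-fold lower at day 5. Under both scalings Tgfbr3 alone was over 2-fold higher at day 5 and no member was at day 11, where Tgfbr3 was 0.74 above day 0 with quantile normalization and 0.89 with centring. With the array set as a block in the fit, no member passed limma's F test, and neither did any other row. In that fit 8 members and 6152 of all 23332 rows had an unadjusted p under 0.05. Without the day 0 array none passed, while 7 members and 4546 of all rows had an unadjusted p under 0.05. Without the secondary iPS array 1 member passed, without day 2 or day 21 2 did, and without any of the other days 3 did. Tgfb3 passed in each of these fits except that without day 0.

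The 2 lines were next compared at day 5 of Dox. Inhba was lower in both lines. Tgfb1, Tgfb2, Tgfb3 and Ltbp2 were lower in both too, and Tgfbr2 and Tgfbr3 went in opposite directions. Inhba was 9.66 at day 5 in 6C, against 12.30 at day 0, and 8.08 at day 5 in 1B, against 12.55 at day 0. On the deposited values it was the 1 member over 2-fold lower in each line, where 1.19% of all rows were. With arrays centred on their medians 4 members were, since the 6C differences of Tgfb1, Tgfb2 and Ltbp2 were then -1.31, -1.14 and -1.21. With quantile normalization these were -1.31, -1.11 and -1.13. In a fit with line as a block, its difference was -3.56 (SE 0.58, adjusted p = 0.56 by limma). No row passed that test (smallest adjusted p = 0.34 by limma), the called share being 0% in each direction, while 1770 rows and 4 members, Tgfb1, Tgfb2, Inhba and Ltbp2, had an unadjusted p under 0.05. With arrays centred on their medians 4 members were called lower: Inhba (adjusted p = 3.22e-05 by limma), Ltbp2 (0.010), Tgfb1 (0.013) and Tgfb3 (0.020). Of all 23332 rows 259 were then called lower and 334 higher. With quantile normalization no member was called (adjusted p = 0.17 for Inhba by limma), nor with a filter on low values. The fit rests on 4 arrays, so limma takes the spread of each row in part from that of all rows. The adjusted p of Inhba moved with the scaling far more than its difference did.

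In 1B, 7 of 9 members were over 2-fold lower at day 5, where 12.7% of all rows were, and none was higher (9.49%). Tgfb1 was 6.22 at day 5, against 9.71 at day 0 in 1B, its lowest level on any of the 13 arrays, while in 6C it was 9.34 at day 5, against 10.32 at day 0. Tgfb3 was 7.55 at day 5, against 11.42 at day 0 in 1B, and 10.53, against 11.10, in 6C. Ltbp2 was 6.40 at day 5, against 10.19 at day 0 in 1B, and 9.70, against 10.57, in 6C.

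Tgfbr3 was 11.20 at day 5 in 6C, against 8.81 at day 0, and 6.79 at day 5 in 1B, against 9.96 at day 0. Tgfbr2 was 10.74 at day 5 in 6C, against 9.63 at day 0, and 7.82 at day 5 in 1B, against 10.23 at day 0. Over 2-fold differences in opposite directions were found for these 2 of the 9 members and for 2.36% of all rows. The 6C arrays at days 0 and 5 are of different array sets, so day and set cannot be told apart there. Parental fibroblasts, in the set of 6C day 5, had 10.92 for Tgfbr3 and 10.91 for Tgfbr2. The 6C difference of Tgfbr2 was under 2-fold with quantile normalization (0.81) and with arrays centred (0.78). The mean of the fibroblast markers was 11.36 at day 5 in 6C, against 11.12 at day 0, and 6.79 at day 5 in 1B, against 10.67 at day 0. Its part in the difference between the lines was not tested. Tgfbr1 and Smad3 stayed within 2-fold in both lines, with Tgfbr1 at 8.93 against 8.86 in 6C and 9.17 against 9.03 in 1B. The 6C differences of both, 0.07 and 0.08, turned to -0.47 and -0.31 with quantile normalization and also fell below 0 with arrays centred.

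**Figure D3:**
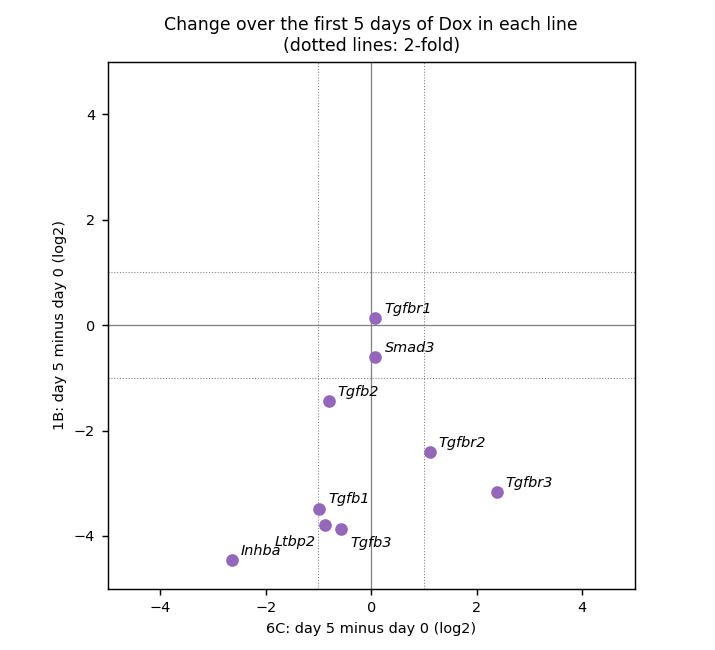
Difference between day 5 of Dox and day 0 (log2) in 6C (horizontal) and in 1B (vertical) for the 9 genes, 1 array per condition and line. Inhba lies beyond the 2-fold lines on the lower side in both lines, Tgfbr2 and Tgfbr3 lie on the higher side in 6C and the lower side in 1B, and Tgfbr1 and Smad3 lie within 2-fold.

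The 1B array taken after withdrawal shows which day 5 levels lasted. After 5 days without Dox 7 of 9 members were over 2-fold higher than at day 5, where 10.8% of all rows were higher and 11.8% lower, and all but Tgfb2 and Tgfbr3 stood within 2-fold of their untreated level. The comparisons with day 5 and of day 5 with day 0 share the day 5 array. Inhba, at 12.55 before Dox and 8.08 on day 5, reached 13.14 after withdrawal, its highest level on any array. Tgfb1 was 9.71, 6.22 and 10.66, Tgfb3 was 11.42, 7.55 and 11.45, and Ltbp2 was 10.19, 6.40 and 10.16 at the same stages. For Tgfb3 and Ltbp2 the level after withdrawal differed from day 0 by 0.03 and -0.03.

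Tgfb2, at 9.78 before Dox and 8.34 on day 5, was 11.12 after withdrawal. It stood 1.34 above day 0, the only member over 2-fold above it, where 3.38% of all rows were; with arrays centred on their medians Tgfb1 was too, by 1.05. Tgfbr2 was 10.23, 7.82 and 10.35 and Smad3 9.48, 8.87 and 10.28 at these stages. Tgfbr3, at 9.96 before Dox and 6.79 on day 5, was 7.27 after withdrawal, so it kept 0.85 of its day 5 difference. It was the only member over 2-fold below day 0, where 7.41% of all rows were. Tgfbr1 was 9.03, 9.17 and 9.78. The fibroblast markers averaged 10.67, 6.79 and 9.86 over these stages, and their part was not tested.

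**Figure D4:**
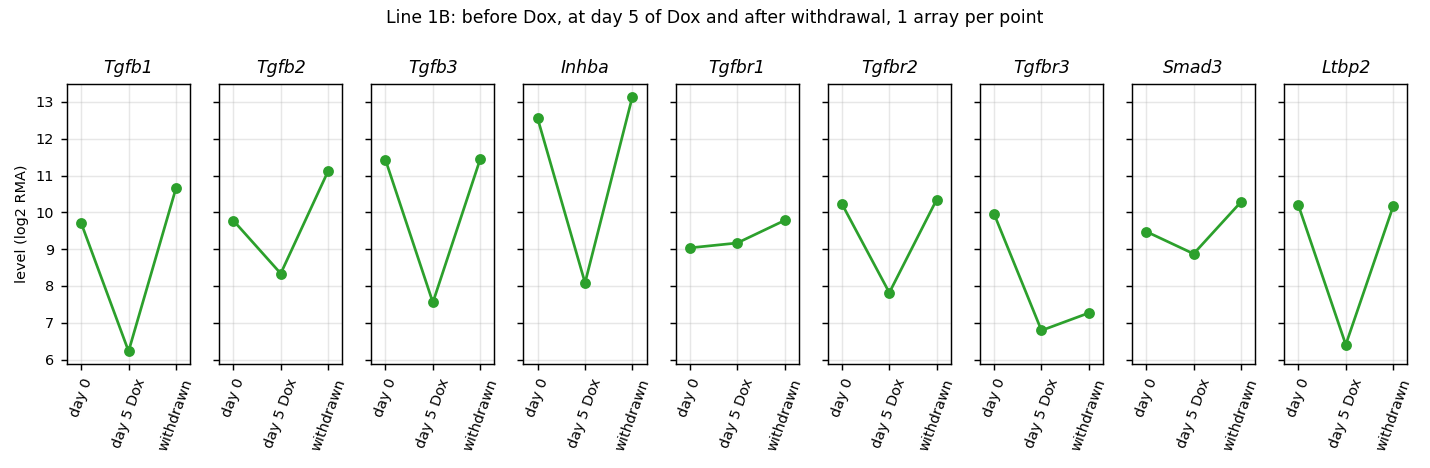
Level (log2 RMA) of the 9 genes in line 1B at day 0, at day 5 of Dox and after 5 further days without Dox, 1 array per point. Inhba, Tgfb1, Tgfb2, Tgfb3, Tgfbr2 and Ltbp2 are lower at day 5, and after withdrawal they stand at or above their day 0 level, Ltbp2 0.03 below it. Tgfbr3 remains low at 7.27.

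The untreated arrays differed too. Against parental fibroblasts, Tgfbr2, Tgfbr3 and Smad3 were over 2-fold lower in untreated 6C cells, where 13.9% of all rows were, with Tgfbr3 at 8.81 against 10.92, and none was higher (3.75%). Smad3 alone was over 2-fold lower in untreated 1B cells, at 9.48 against 10.50, where 6.37% of all rows were, and none was higher (5.55%). With quantile normalization 1 member was over 2-fold lower in 6C, and with arrays centred on their medians none was in 1B. The ligand genes, Tgfbr1 and Ltbp2 stayed within 2-fold of parental cells on both arrays. Each untreated array is of a different array set, so line and set cannot be told apart here. The median difference of all rows from parental cells was -0.18 in 6C and 0.02 in 1B.

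Across the 13 arrays the genes with the most similar profile to each member were sought by the root mean square difference of profiles centred on their own means, among genes whose range over the arrays was at least 0.5 times that of the member. The genes compared thus differ between members, and so does the median difference, so values are not ranked across members. For Tgfb3 the nearest were Msrb3 (0.30) and Nrp1 (0.32), where the median over the 2844 genes compared was 1.71. For Ltbp2 they were the collagen gene Col5a1 (0.29) and P4ha3 (0.30), a prolyl hydroxylase subunit gene. For Inhba they were Nuak1 (0.41) and Tspan2 (0.42), for Tgfb1 Pdgfc (0.42) and Cdc42ep1 (0.43), and for Tgfb2 Gpc6 (0.46) and Hoxd10 (0.50). For Tgfbr2 they were Arhgap24 (0.38) and Pcdh18 (0.39), and for Tgfbr3 Scara3 (0.34) and Cdo1 (0.43). For Smad3 they were Efnb1 (0.26) and Pogk (0.28), with a median of 1.09 over 5750 genes. For Tgfbr1, which varied little, they were Synm (0.16) and Ppp4r2 (0.19), with a median of 0.59 over 12213 genes. For the other members the median lay between 1.45 (Tgfbr2) and 1.99 (Inhba). No member was among the nearest 2 genes of another.

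The wider pathway was described by a list of 45 further genes, also chosen with earlier results of these data known. Of this list 37 genes were measured as single-symbol rows. In iPS cells against untreated fibroblasts 11 of these fell and 2 rose by limma, with a median difference of -1.12, beside the 3.32% and 5.44% of all rows given above. These calls depended on single arrays too: without the primary iPS array 1 of all rows was called lower, and without the 1B day 0 array 4 were. Of 8 measured genes of the latent complex and its activation 5 fell and none rose: Fbn2, a fibrillin gene, fell by 3.83 on the log2 scale (adjusted p = 0.024), Ltbp1 fell by 2.98 (0.031) and Ltbp3 fell by 2.96 (0.036), with Furin, the protease that cleaves the precursors, and the integrin gene Itgav also called. Among activin binders and inhibin subunits, Fst, which encodes the activin antagonist follistatin, fell by 3.17 (adjusted p = 0.047), and 2 of 3 were not called. Of 10 measured target genes 4 fell and none rose, with log2 differences of -3.51 for Tgfb1i1 (0.015), -3.45 for Tgfbi (0.048) and -3.10 for Ccn1, a matricellular gene (0.025).

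Of 4 further receptor genes 1 rose and none fell: Acvr2b, an activin type II receptor gene, was 8.26 in iPS cells and 6.02 in untreated fibroblasts on average (log2 difference 2.24, adjusted p = 0.022 by limma). Neither measured transducer was called, with Smad2 at 9.71 and 9.64 and Smad4 at 10.52 and 10.73 on average in iPS cells and untreated fibroblasts. Of 10 inhibitors and attenuators 8 were not called. Pmepa1, a feedback inhibitor induced by TGF-beta, fell by 1.82 on the log2 scale (adjusted p = 0.024 by limma), and Tgif2, a nuclear co-repressor gene, was higher by 1.49 (adjusted p = 0.0497 by limma).

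**Figure D5:**
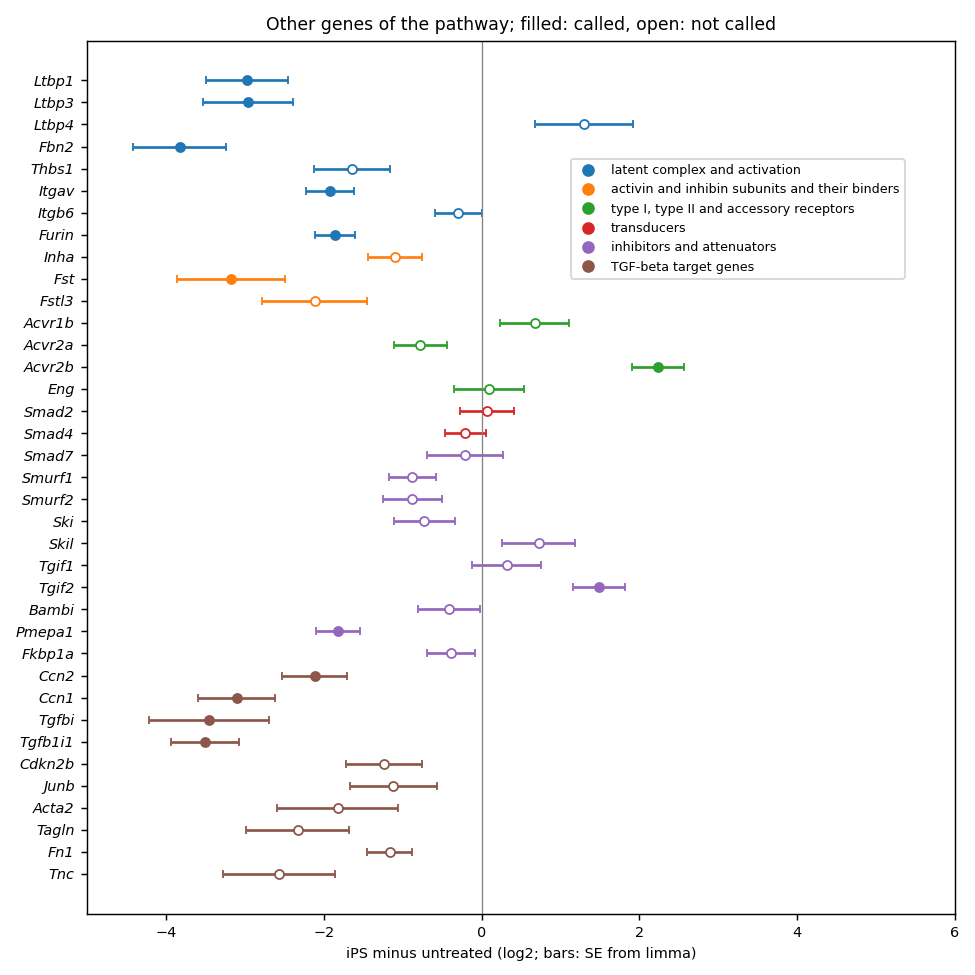
Difference between iPS cells and untreated fibroblasts (log2, horizontal) for 37 other genes of the pathway, coloured by role; bars are the SE from limma, and filled points passed the test. Fbn2, Tgfb1i1 and Tgfbi lie farthest to the left, and the filled points on the right are Acvr2b and Tgif2.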

How the data were processed

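RNA was labelled and hybridised to 13 Affymetrix mouse exon arrays. The authors deposited log2 values; the submitters' processing notes name Expression Console, gene-level RMA and mm9, and no version. RMA includes background correction and normalization between arrays, and it compresses low values. The log base was taken as 2 from the range, 0.461 to 14.3. Of 23332 rows 14996 had 1 platform gene symbol, 14941 of them updated by gene identifier to GRCm38.p6, and per gene the row with the highest mean was used.

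Groups came from the labels. Array medians ranged from 6.34 (6C day 0) to 6.67, and the number of arrays limits the precision. Array names give 4 sets by prefix: set 1 held 6C days 0 and 21, set 2 parental cells, primary iPS cells and 6C days 2, 5, 11 and 16, set 3 the 1B arrays, and set 4 6C day 8 and secondary iPS cells. The array names call the 6C day 0 array day 2 without Dox and the day 8 array day 9; the sample labels were followed.

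Fits were made with limma 3.58.1 (R 4.3.3), each over all rows. In them iPS cells (2 arrays) were set against untreated fibroblasts (3 arrays), and the 6C series (8 arrays) was fitted by a polynomial of degree 3. Day 5 was compared with day 0 with line as a block (4 arrays). The fits were also run on simulated data with independent noise and no differences between array sets. Such data cannot test the calls given here. Single arrays were compared by 2-fold differences without a test. Members and lists were chosen with earlier results of these data known. All members are named; of the pathway list, per role, up to 3 called genes in each direction, or 2 where none was called, and the 2 nearest profiles per member, without RIKEN or predicted names. Exceptions to this rule, Furin and Itgav and those in the closing section, were named after their values were seen. The closing section gives the effect of other scalings, filters, curves, baselines and blocks and of leaving out arrays.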

Additional observations from a re-analysis of the deposited data

Results flagged for a closer look

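At day 5 of Dox, 2 of the 9 members and 1 of the 37 other genes of the pathway differed over 2-fold from day 0 in opposite directions in the lines, where 2.36% of all rows did. These differences rest on single arrays and were not tested. The 6C arrays are of set 1 at day 0 and set 2 at day 5, so day and array set cannot be told apart there. The 1B arrays share set 3. Parental fibroblasts, in set 2, had 10.92 for Tgfbr3, 10.91 for Tgfbr2 and 11.31 for Tgfbi. The 6C levels at day 5 were 11.20, 10.74 and 11.61. For Tgfbr3 the change in 6C minus that in 1B was 5.55 (2.39 in 6C and -3.17 in 1B), for Tgfbr2 3.52 (1.11 and -2.41), and for Tgfbi, a matrix gene induced by TGF-beta, 6.31 (2.40 and -3.90). With quantile normalization the differences were 5.01, 3.00 and 5.92, and the 6C change of Tgfbr2 was 0.81 with it and 0.78 with arrays centred, under 2-fold.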

How the results depend on the processing

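In iPS cells against untreated fibroblasts 6 members were called lower, 7 with quantile normalization or arrays centred on their medians, 8 with the filter on low values (11797 rows left) and 6 with an intensity trend or no fold threshold. Leaving out 1 array gave 0 to 5. In the 6C series 5 were called lower, 8 with the filter on low values, 6 with quantile normalization or when day 0 was averaged over all untreated arrays, 5 with degree 2 (without Tgfbr2 and Tgfbr3, with Tgfb1 and Smad3), 2 with the day on a log2 scale (Tgfb3 and Ltbp2), and 0 with the array set as a block. Leaving out 1 array there gave 0 to 3. The filter on low values raised the calls among all rows too. In the iPS comparison 1499 of 11797 rows were then called lower, against 775 of 23332. In the 6C series 1381 of 11738 were, against 581 of 23332. At day 5 in both lines 0 were called lower (4 at an unadjusted p under 0.05). The number was 0 with quantile normalization, the filter on low values or an intensity trend, and 4 with arrays centred on their medians. Among rows of all genes the calls at day 5 were then 259 lower and 334 higher, against 0 and 0. No member was called higher under any of these settings, and no called member reversed its direction under them. Over all rows the iPS comparison gave 775 lower and 1269 higher calls, 1299 and 1660 with quantile normalization, and 1 and 79 without the primary iPS array. On single arrays both other scalings gave 4 members over 2-fold lower and 1 higher at day 5 of 6C (1 and 2 as deposited) and 0 higher at day 11 (1 as deposited). The cause of these shifts was not tested. Centring moved the median fitted day 30 change of all rows in the 6C series to -0.13. An array set as a random block could not be fitted, since its correlation could not be estimated. Leaving out an array of the day 5 fit leaves no residual spread, so it was not run. The labels number no replicates; without line as a replicate block 0 members were called at day 5. Mean over a gene's rows changed nothing, as each member had 1 row.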

Other observations

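Many other genes of the pathway were lower in 1B at day 5, without a test. Of 37, 23 were over 2-fold lower at day 5 than at day 0, where 12.7% of all rows were, and 23 were over 2-fold higher after withdrawal than at day 5, where 10.8% were; both counts share the day 5 array. In the other direction, 2 were over 2-fold higher at day 5 than at day 0, where 9.49% of all rows were. These were Acvr2b (7.37 and 6.07) and Tgif2 (7.99 and 6.54). After withdrawal 1 of the 37 was over 2-fold below its day 5 level, Acvr2b at 6.24, where 11.8% of all rows were. Smooth muscle markers, of which Tagln is one, averaged 10.97, 7.30 and 10.43 and fibroblast markers 10.67, 6.79 and 9.86 at day 0, day 5 and after withdrawal, and their part was not tested. Tagln, an actin-binding gene of contractile cells, had 13.30 before Dox, 8.89 on day 5 and 13.40 after withdrawal. Ccn2, a TGF-beta target that encodes a matricellular protein, was 13.63, 10.46 and 13.74. Pmepa1 was 12.59, 9.90 and 13.14. Against day 0, 2 of the 37 were over 2-fold lower after withdrawal, where 7.41% of all rows were, and 1 was higher (3.38%). These were Fbn2 (7.55 after withdrawal, 8.88 at day 0) and Tgfbi (7.83 and 9.71), and Cdkn2b, a cell cycle inhibitor gene, at 10.79 and 9.74.

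In the 6C series 1 of the 37 was called as ending higher, where 3.87% of all rows were. As ending lower 4 were called, where 2.49% of all rows were: Fbn2, Fst, Fstl3 and Cdkn2b. The 1 ending higher was Acvr1b, an activin type I receptor gene (F test by limma, adjusted p = 0.042). Its levels on days 0, 2, 5, 8, 11, 16 and 21 were 7.40, 8.52, 9.34, 9.43, 9.92, 9.20 and 9.31, with 8.79 in secondary iPS cells. The 6C day 0 array was the lowest untreated one: parental fibroblasts had 8.79, the level of secondary iPS cells, and untreated 1B cells 7.99. With the array set as a block no row passed the F test. In iPS cells against untreated fibroblasts Acvr1b did not pass (log2 difference 0.67, adjusted p = 0.39 by limma).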
